A study of Mus musculus with 17 samples.

Results

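Astrocytes clear GABA, glutamate and glycine from the extracellular space and turn them over, and 9 genes of this system were followed: *Slc6a11*, *Slc6a9*, *Slc1a2*, *Slc1a3*, *Glul*, *Glud1*, *Slc25a18*, *Slc38a3* and *Abat*. They were taken by gene symbol from the 56691 genes of the deposited count table, and each of the 9 matched 1 gene. Bulk 3ʹ-end RNA-seq was performed on astrocytes that had been immunopanned from whole brains of C57BL/6 mice at postnatal day 2, without olfactory bulbs and cerebellum, and cultured in serum-free medium with HBEGF. The dishes depleted CD45+ and O4+ cells and retained HepaCAM+ cells. Since whole brains were dissected, the cultures did not come from the septum alone. In a first experiment, 3 cultures received SAG at 500 ng/ml and 3 received its solvent DMSO, from day 3 in vitro for 3 days. In a second, 4 received FGF2 and 3 received FGF10, both at 50 ng/ml, and 4 received PBS, from day 2 in vitro for 7 days. Each library is called a culture here, but the labels do not say whether libraries came from separate animals or cultures. SAG is a chemical agonist of Smoothened that switches on the sonic hedgehog (SHH) pathway, while FGF2 and FGF10 are growth factors that signal through FGF receptors. The study had asked whether cues made by septal neurons, among them SHH and FGFs, set the regional gene expression of medial and lateral septal astrocytes, 2 populations that it distinguishes by *Slc6a11* and *Slc1a2*, among other genes.

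At synapses, GABA is taken up by sodium-coupled transporters of the SLC6 family and glutamate by those of the SLC1 family, both of which are abundant in astrocyte membranes. Inside the astrocyte, glutamate is either amidated by glutamine synthetase to glutamine, which is exported back to neurons, or enters mitochondria and is oxidized. GABA is broken down in mitochondria by GABA transaminase to succinic semialdehyde and then to succinate. *Slc6a11* encodes the GABA transporter GAT3, *Slc6a9* the glycine transporter GlyT1, *Slc1a2* the glutamate transporter GLT-1 and *Slc1a3* the glutamate transporter GLAST. *Glul* encodes glutamine synthetase, *Slc38a3* a glutamine transporter, *Slc25a18* a mitochondrial glutamate carrier, *Glud1* glutamate dehydrogenase and *Abat* GABA transaminase.

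All 9 are protein-coding genes in the RefSeq annotation of GRCm38.p6, the build that the submitters' processing notes name. The GABA transporter gene *Slc6a11* lies at chr6:114131241-114249886 and the glutamate transporter gene *Slc1a2* at chr2:102658239-102790784. The mitochondrial carrier gene *Slc25a18* lies on the same chromosome as *Slc6a11*, at chr6:120773504-120794169. The remaining 6 lie at chr4:117835258-117869305 (*Slc6a9*), chr15:8634124-8710807 (*Slc1a3*), chr1:153899929-153909723 (*Glul*), chr14:34310727-34345033 (*Glud1*), chr9:107651154-107668968 (*Slc38a3*) and chr16:8513429-8621568 (*Abat*). A RefSeq table of promoters, which gives 250 bases before and 50 bases after a transcript's start, held 9 promoters of 7 of these genes. The 250 bases before a start are shown for *Slc6a11* and *Slc1a2*, the pair that the study sets against each other, and for *Slc25a18*, which had the largest fold of the 9 under SAG. They are written 5ʹ to 3ʹ on the plus strand with CG dinucleotides in capitals.
Slc6a11, chr6:114130991-114131240: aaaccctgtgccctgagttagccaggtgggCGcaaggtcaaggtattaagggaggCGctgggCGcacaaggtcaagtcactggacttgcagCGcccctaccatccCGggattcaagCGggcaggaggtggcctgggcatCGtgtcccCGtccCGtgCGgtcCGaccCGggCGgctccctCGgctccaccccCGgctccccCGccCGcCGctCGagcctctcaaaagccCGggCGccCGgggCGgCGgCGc
Slc1a2, chr2:102706188-102706437: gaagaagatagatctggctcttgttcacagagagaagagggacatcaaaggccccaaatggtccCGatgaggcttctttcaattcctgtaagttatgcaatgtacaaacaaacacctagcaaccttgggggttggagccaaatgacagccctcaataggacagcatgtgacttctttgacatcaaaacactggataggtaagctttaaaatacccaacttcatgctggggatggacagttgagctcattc
Slc25a18, chr6:120773518-120773767: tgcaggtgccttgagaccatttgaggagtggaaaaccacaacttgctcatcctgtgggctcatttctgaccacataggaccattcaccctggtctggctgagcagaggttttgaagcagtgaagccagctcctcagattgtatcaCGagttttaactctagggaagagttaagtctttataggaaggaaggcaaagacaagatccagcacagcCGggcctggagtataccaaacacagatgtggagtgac
The *Slc1a2* sequence precedes a transcript start inside the gene's span and not its first base, and the *Slc25a18* sequence also lies inside its gene's span. The *Slc6a11* sequence held 25 CG dinucleotides, the *Slc25a18* sequence 2 and the *Slc1a2* sequence 1, against a median of 6 over 32851 promoters. The letters GACCACCCA, bound by the GLI factors at the end of the SHH pathway, were searched on both strands of the full 300 bases. They were in 0.253% of all promoters, in none of the 9 and in no promoter of *Ptch1*, a known target of the pathway, and no match says only that these letters are not in this window. The last 7 letters alone were in 9.3% of all promoters and in 1 of the 9, a promoter of *Slc6a9*.

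Levels are CPM, each gene's count scaled to library size after normalization of the 17 libraries together, and the total count per library was between 17481727 and 68342287. A difference between groups was called at an adjusted p under 0.05 in edgeR's quasi-likelihood fit, where p-values were adjusted by Benjamini-Hochberg for every gene tested in that comparison. Among markers of other cells, those of microglia and macrophages summed to at most 4.36 CPM in any library, with *Csf1r* and *Aif1* at no count. The sum of 10 astrocyte markers was 1917 to 3805 CPM, that of 8 neuronal markers 29.3 to 181 CPM and that of 8 markers of the oligodendrocyte lineage 346 to 967 CPM. In these bulk samples, fewer cells of a type and less RNA per cell cannot be told apart. *Ptch1*, a direct target of SHH signaling, was at 81.5, 103 and 67.6 CPM with DMSO and at 465, 483 and 458 CPM with SAG, a log2 fold change of 2.50 ± 0.22 (SE, adjusted p = 0.00173).

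*Slc6a11* was the member with the clearest separation under SAG. Its level was 270.3, 258 and 189 CPM in the 3 DMSO cultures and 479, 665 and 528 CPM in the 3 SAG cultures. Every SAG culture was above every DMSO culture, and also above each of the 11 cultures of the FGF experiment, which ran from 235 to 426 CPM. The log2 fold change was 1.24 ± 0.21 (SE, n = 3 and 3), a fold of 2.37, with a 95% confidence interval from 0.78 to 1.71 on the log2 scale. It ranked 13 of 12538 genes by p, but its adjusted p was 0.0854 by edgeR and it was not called. The study, which tested with DESeq2 at a stricter threshold, reported *Slc6a11* as significantly upregulated by SAG. The call depended on the method: the adjusted p was 2.39e-09 with DESeq2's Wald test, 4.79e-05 with no filter on low counts, 9.78e-04 when genes averaging at least 10 counts were kept, 0.0393 with the replicate number as a block and 0.110 with all 17 libraries in the fit. With any 1 library left out, it was between 0.111 and 0.371 while the log2 fold change stayed between 1.10 and 1.35. Two-sided exact permutation of the CPM values gave p = 0.1, the smallest that 3 against 3 allows.

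The glutamate transporter gene *Slc1a2* was at 497, 571 and 434 CPM with DMSO and at 369, 506 and 514 CPM with SAG. The groups overlapped, and the log2 fold change was -0.089 ± 0.196 (SE), with an interval from -0.52 to 0.34. Since *Slc6a11* and *Slc1a2* were counted in the same libraries, their ratio does not depend on how libraries were scaled. The log2 ratio of *Slc6a11* counts to *Slc1a2* counts was -0.88, -1.15 and -1.20 with DMSO and 0.38, 0.39 and 0.04 with SAG. The SAG cultures were higher by 1.35 ± 0.15 (SE) on the log2 scale, a fold of 2.54, with no overlap. The two-sided exact permutation p was 0.1, again the smallest possible for 3 against 3, and 0.4 after adjustment over 4 comparisons. Reads come from transcript ends and priming can differ between transcripts, so this ratio was compared between cultures only.

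**Figure D1:**
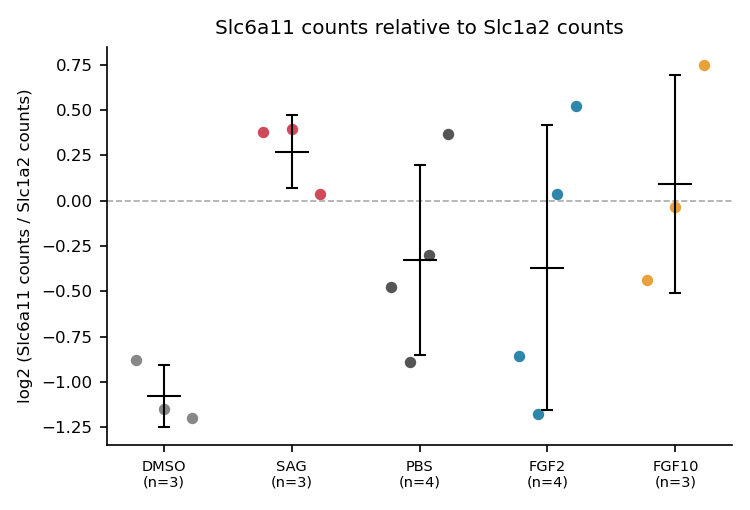
Log2 ratio of *Slc6a11* counts to *Slc1a2* counts (vertical axis) in each of the 17 cultures by group (horizontal axis), with 0.5 counts added to both. Points are cultures, and horizontal bars with whiskers are the mean and SD. All 3 SAG cultures are between 0.04 and 0.39, above the DMSO cultures at -1.20 to -0.88, while the PBS, FGF2 and FGF10 cultures overlap and span -1.17 to 0.75.

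The glutamate transporter gene *Slc1a3* and the glycine transporter gene *Slc6a9* had SAG and DMSO cultures that overlapped. *Slc1a3* was at 1338, 1350.2 and 1235 CPM with DMSO and at 1591, 1421 and 1262 CPM with SAG. *Slc6a9* was at 85.0, 80.4 and 106 CPM with DMSO and at 103, 98.2 and 84.2 CPM with SAG. The log2 fold changes were 0.15 ± 0.14 for *Slc1a3* and 0.09 ± 0.27 for *Slc6a9* (SE). The interval of *Slc1a3* ended at 0.46 and that of *Slc6a9* at 0.68, both below the lower end for *Slc6a11*, 0.78. The difference between these genes was not tested.

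Of the genes that handle glutamate after uptake, *Glud1* and *Slc25a18* were higher in all SAG cultures, as were 5.96% of all genes, and *Glul* was lower in all, as were 8.21%. *Glul*, the glutamine synthetase gene, was at 1497, 1643 and 1568 CPM with DMSO and at 984, 1175 and 1269.7 CPM with SAG. All SAG cultures were lower, with a log2 fold change of -0.43 ± 0.15 (SE, adjusted p = 0.618 by edgeR; 0.0480 by DESeq2). *Glud1*, whose product oxidizes glutamate in mitochondria, was at 385, 409.6 and 364 CPM with DMSO and at 449, 500.0 and 653 CPM with SAG. All SAG cultures were higher, by 0.49 ± 0.19 on the log2 scale (SE, adjusted p = 0.720 by edgeR; 0.0735 by DESeq2).

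*Slc25a18*, the carrier that brings glutamate into mitochondria, was at 14.6, 25.1 and 23.4 CPM with DMSO and at 73.3, 79.0 and 36.1 CPM with SAG. Its log2 fold change of 1.60 ± 0.49 (SE) was the largest of the 9 in size, a fold of 3.03, but the lowest SAG culture was at less than the mean of the FGF2 group, 36.4 CPM. The adjusted p was 0.512 by edgeR and 0.0189 by DESeq2. *Slc38a3*, which carries glutamine across the plasma membrane, was at 57.4, 57.9 and 16.4 CPM with DMSO and at 38.4, 21.7 and 17.5 CPM with SAG. Its log2 fold change was -0.74 ± 0.62 (SE), and the low DMSO culture lay below all 3 SAG cultures.

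*Abat*, the GABA transaminase gene, was at 34.5, 25.2 and 29.6 CPM with DMSO and at 0.546, 38.4 and 53.4 CPM with SAG. The first SAG culture held 19 *Abat* counts, whereas each of the other 16 libraries held at least 865. The log2 fold change was 0.08 ± 1.04 (SE) with that culture and 0.65 without it. Of 4703 genes with a mean of 20 to 80 CPM, 106 (2.25%) had a level in this library more than 20-fold below the median of the others, against 0.0851% to 1.66% in the remaining 16 libraries. This gap was examined after the values had been seen.

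Of the 9 genes under SAG, edgeR called none, where it called 0.0638% of the 12538 genes tested. At an unadjusted p under 0.05 there were 4 of the 9, against 714 of all genes, and DESeq2 called 3 (*Slc6a11*, *Slc25a18* and *Glul*), where it called 3.01% of all genes. The groups did not overlap in the higher direction for 3 genes (*Slc6a11*, *Glud1* and *Slc25a18*), and in the lower direction for 1 (*Glul*), with the shares of all genes given above. The median log2 fold change of the 9 was 0.09, and that of all genes was -0.02. Summed levels of markers separated these groups for endothelial and mural cells, ependymal cells and astrocytes, and overlapped for the other cell types. The summed level of 6 markers of endothelial and mural cells was 22.4 to 23.9 CPM with DMSO and 0 to 13.7 CPM with SAG, with *Cldn5* and *Vtn* at no count in any library. That of 3 ependymal markers was 149 to 247 CPM with DMSO and 69.8 to 139 CPM with SAG, and that of the 10 astrocyte markers was 2592 to 2716 CPM and 1917 to 2447 CPM. Single astrocyte markers went both ways. The log2 fold change was negative for *Gfap* (-2.08 ± 0.35, SE), *Gja1*, *Sox9*, *Fgfr3* and *Aqp4*. It was positive for *Aldh1l1* (0.80 ± 0.24, SE), *Hepacam*, *Aldoc* and *S100b*. The part of these shifts in the values above was not tested.

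**Figure D2:**
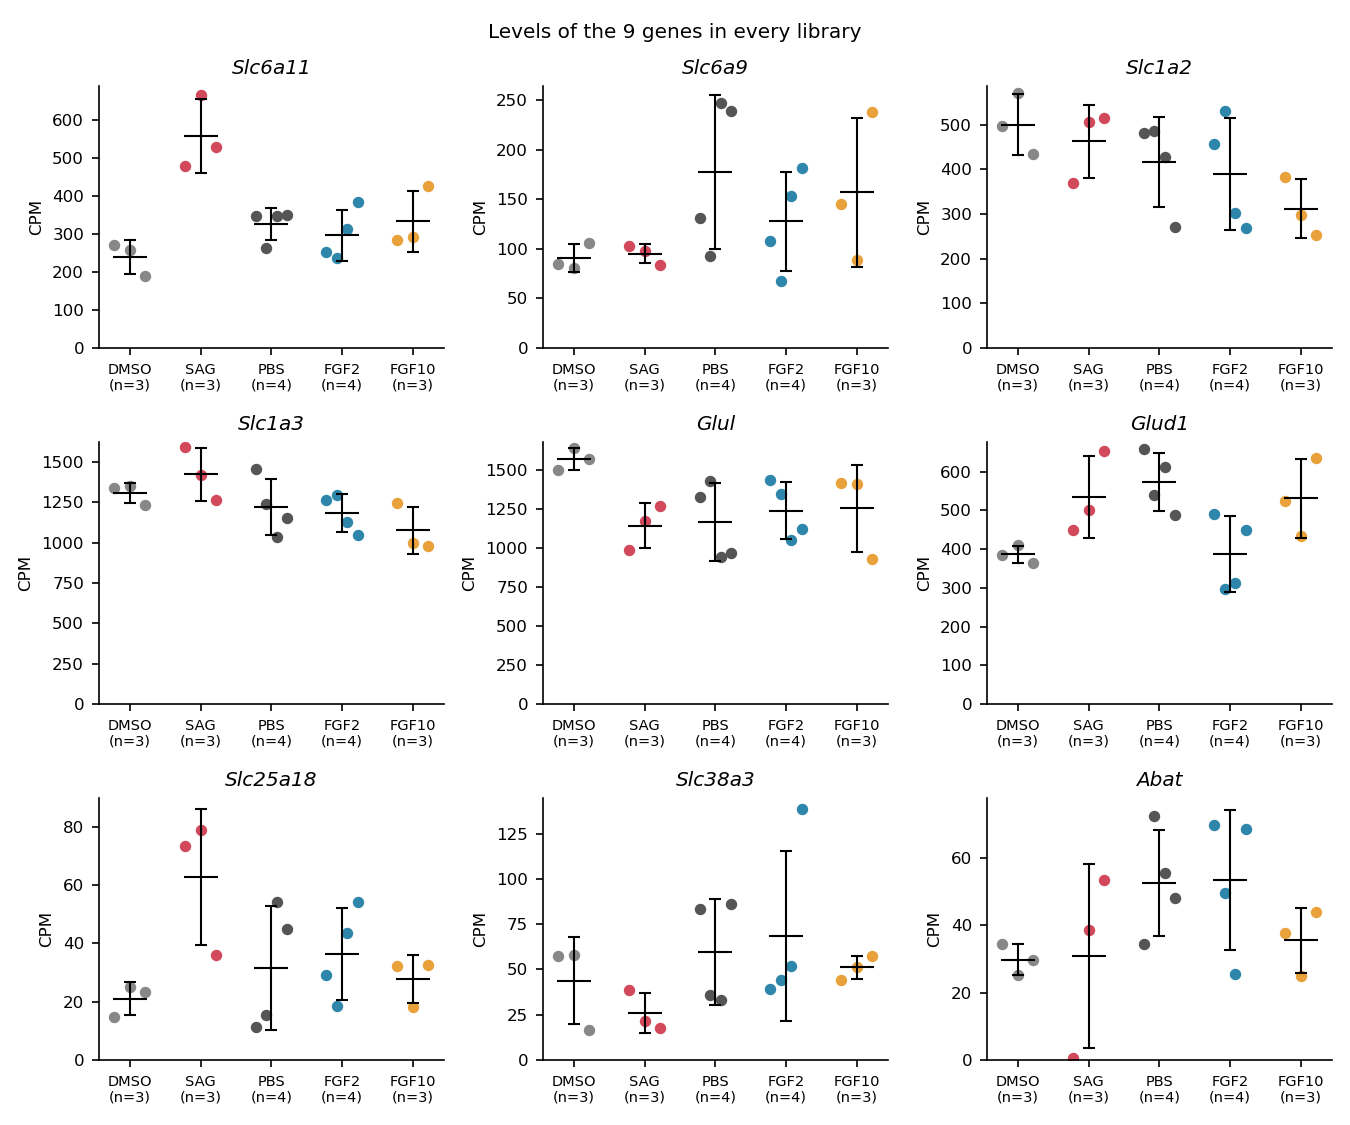
Level in CPM (vertical axes, from 0) of each of the 9 genes in each of the 17 cultures, by group (horizontal axes). Points are cultures, and bars with whiskers are the mean and SD. *Slc6a11* is at 479 to 665 CPM in SAG cultures and at most 426 CPM in all others, *Glul* is highest with DMSO, and 1 SAG culture has almost no *Abat* counts.

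A wider list of 45 genes of transmitter transport and amino acid metabolism gave the setting of these values. Of the 45, 33 passed the filter on low counts in the SAG comparison. None of them was called by edgeR (0.0638% of all genes), and 7 had an unadjusted p under 0.05 (5.69% of all genes). DESeq2 called 3 of the 33, where it called 3.01% of all genes. The median log2 fold change of the 33 was 0.24. SAG cultures were above all DMSO cultures for 9 of the 33 (5.96% of all genes) and below them for 4 (8.21% of all genes). Among 11 transporters of plasma membrane and vesicles, *Slc7a5* and *Slc3a2* were among the higher ones and *Slc7a11* was the lower one. Among 20 enzymes, *Aldh5a1*, *Got2*, *Pcx*, *Asns*, *Gcsh* and *Aldh4a1* were higher and *Gad1*, *Gad2* and *Oat* lower.

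*Pcx* and *Aldh5a1* were among the 3 genes of that list with the smallest p. *Pcx*, which encodes pyruvate carboxylase, the enzyme that lets astrocytes make new glutamate carbon from glucose, was at 15.2, 13.0 and 21.2 CPM with DMSO and at 46.5, 136 and 116 CPM with SAG. *Aldh5a1*, which encodes succinic semialdehyde dehydrogenase, the step after *Abat* in GABA breakdown, was at 14.8, 26.3 and 9.13 CPM with DMSO and at 102, 58.7 and 51.1 CPM with SAG. In both genes the lowest SAG culture exceeded the highest DMSO culture. The log2 fold changes were 2.62 ± 0.47 for *Pcx* and 2.09 ± 0.53 for *Aldh5a1* (SE). The adjusted p was 0.101 and 0.425 in that order by edgeR, and 6.36e-07 and 0.00145 by DESeq2.

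The GABA-synthesizing enzymes, which mark GABAergic neurons, were examined after their values had been seen. *Gad2* was at 29.2, 22.8 and 45.5 CPM with DMSO and at 1.98, 11.4 and 0 CPM with SAG. *Gad1* was at 11.8, 5.62 and 20.3 CPM with DMSO and at 0, 4.20 and 0.0319 CPM with SAG. Neither was called (adjusted p = 1.00 for both by edgeR). The summed level of the 8 neuronal markers was 53.3 to 180.1 CPM with DMSO and 42.7 to 94.7 CPM with SAG, so these groups overlapped.

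**Figure D3:**
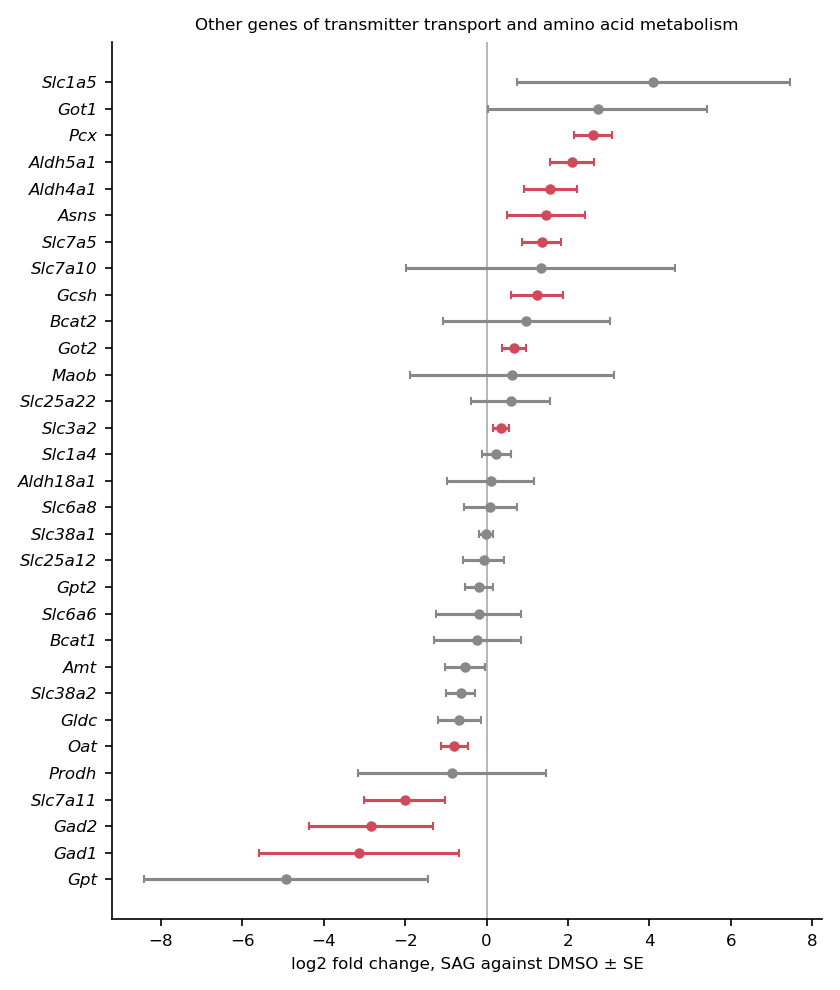
Log2 fold change of SAG against DMSO (horizontal axis) with its SE for 31 tested genes of the wider list (vertical axis, ordered by fold change). Red marks the 12 genes whose SAG and DMSO cultures did not overlap and gray the others. *Pcx* and *Aldh5a1* stand at 2.62 and 2.09 with short error bars, whereas the extreme values of *Slc1a5* and *Gpt* have an SE of 3.35 and 3.49.

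In the FGF experiment, FGF2 and FGF10 are compared with the same 4 PBS cultures, so the comparisons share their controls. *Slc6a11* was at 346, 262, 348 and 349 CPM with PBS, at 252, 235, 312 and 384 CPM with FGF2 and at 283, 291 and 426 CPM with FGF10. *Slc1a2* was at 481, 486, 428 and 271 CPM with PBS, at 456, 531, 303 and 268 CPM with FGF2 and at 384, 298 and 254 CPM with FGF10. Groups overlapped in both genes. For *Slc6a11* the log2 fold change against PBS was -0.13 ± 0.22 with FGF2 and 0.04 ± 0.22 with FGF10 (SE), with intervals that ended at 0.33 and 0.51. For *Slc1a2* it was -0.09 ± 0.26 and -0.41 ± 0.24 (SE), and the interval for FGF10 ran from -0.94 to 0.12.

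The log2 ratio of *Slc6a11* to *Slc1a2* counts ranged from -0.89 to 0.37 with PBS, from -1.17 to 0.52 with FGF2 and from -0.44 to 0.75 with FGF10. It differed from PBS by -0.04 ± 0.47 with FGF2 (SE, two-sided exact permutation p = 0.971, adjusted p = 0.971) and by 0.42 ± 0.44 with FGF10 (exact permutation p = 0.371, adjusted p = 0.571). Between FGF2 and FGF10 the difference was -0.46 ± 0.52 (exact permutation p = 0.429, adjusted p = 0.571). The SD within a group, 0.52 to 0.78, was above that with DMSO or SAG, 0.17 and 0.20.

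The member with the smallest p under FGF2 was *Glud1*, at 658, 539, 610.4 and 488 CPM with PBS and at 491, 296, 312 and 448 CPM with FGF2. A single pair of cultures, at 488 and 491 CPM, made the groups overlap. The log2 fold change was -0.56 ± 0.22 (SE, adjusted p = 1.00 by edgeR; 0.329 by DESeq2), and the two-sided exact permutation p was 0.0571. With FGF10, *Glud1* was at 525, 432 and 634 CPM, a log2 fold change of -0.11 ± 0.20 against PBS. The direct difference of FGF2 from FGF10 was -0.45 ± 0.25 (SE, adjusted p = 1.00 by edgeR), with an interval from -0.99 to 0.10.

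Values for the other members follow. For *Slc6a9* the log2 fold change against PBS was -0.47 ± 0.36 with FGF2 and -0.17 ± 0.39 with FGF10, and for *Slc1a3* it was -0.04 ± 0.18 and -0.18 ± 0.19 (SE). For *Glul* it was 0.10 ± 0.20 and 0.11 ± 0.22, and for *Slc25a18* 0.22 ± 0.55 and -0.18 ± 0.61 (SE). *Slc38a3* had 0.21 ± 0.46 and -0.22 ± 0.41, and *Abat* 0.03 ± 0.38 and -0.56 ± 0.40 (SE). None of these reached an unadjusted p of 0.05, and the cultures of all groups overlapped.

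By edgeR, none of the 9 genes was called with FGF2 against PBS, FGF10 against PBS or FGF2 against FGF10, and the share called among all genes was 0% in each. At an unadjusted p under 0.05 there was 1 of the 9 with FGF2 (223 of 12744 genes), 0 with FGF10 (305 of 13309 genes) and 0 between the ligands (324 of 13493 genes). DESeq2 called 0 of the 9 in each, and 120, 104 and 90 genes in all, or 0.805%, 0.666% and 0.543% in that order. No member had groups without overlap in any of the 3 comparisons. Among all genes this was so for 1.22% in the higher and 1.23% in the lower direction with FGF2, for 2.77% and 2.02% with FGF10, and for 2.33% and 2.57% between FGF2 and FGF10.

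In the wider list, no gene was called in these comparisons, of 34, 36 and 34 tested. Among the 3 with the smallest p under FGF2 were *Slc38a1* (a glutamine transporter) and *Slc6a6* (the taurine transporter), with log2 fold changes of -0.40 ± 0.19 and 1.57 ± 1.09 (SE). *Slc38a1* was at 645, 623, 547 and 581 CPM with PBS and at 531, 491, 367 and 420.3 CPM with FGF2, without overlap. No other gene of the 34 separated under FGF2, while 1.23% of all genes were lower and 1.22% higher without overlap. Under FGF10 the 3 were *Aldh5a1*, *Slc25a22* (a mitochondrial glutamate carrier) and *Bcat1* (a transaminase of branched-chain amino acids), with 1.29 ± 0.58, 1.38 ± 0.65 and -1.47 ± 0.89 (SE). *Aldh5a1* was at 5.98, 20.4, 24.9 and 19.0 CPM with PBS and at 40.1, 25.3 and 63.3 CPM with FGF10, again without overlap. FGF10 cultures were above all PBS cultures for 3 of the 36 genes (2.77% of all genes) and below them for 1 (2.02% of all genes). Between FGF2 and FGF10, *Slc25a22*, *Slc6a6* and *Aldh5a1* led with -1.34 ± 0.78, 2.56 ± 1.54 and -0.78 ± 0.49 (SE). FGF2 cultures were above all FGF10 cultures for 1 of the 34 (2.33% of all genes), *Slc6a6*, and below them for none (2.57% of all genes). *Slc6a6* was low, at 15.4, 16.5, 28.8 and 8.68 CPM with FGF2 and at 1.94, 0 and 6.89 CPM with FGF10. With PBS it was at 6.68, 11.0, 5.62 and 0.19 CPM.

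**Figure D4:**
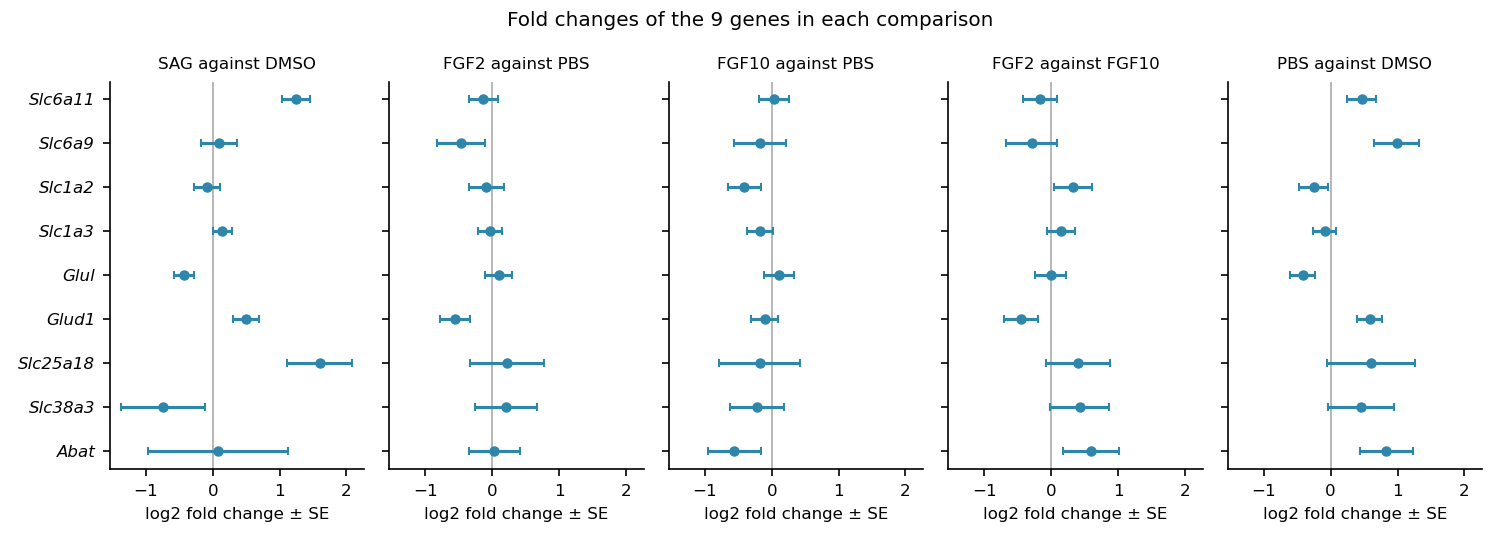
Log2 fold change with its SE (horizontal axes) of the 9 genes (vertical axis) in each of the 5 comparisons, by edgeR. *Slc6a11* stands at 1.24 under SAG and between -0.17 and 0.46 in the other comparisons, and none of the 45 values passed an adjusted p of 0.05.

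The control groups were compared to place these levels. PBS and DMSO cultures differ in vehicle, in the start and length of treatment and in the experiment, which cannot be told apart, and each group is also the control of a comparison above. *Glud1* was at 364 to 409.6 CPM with DMSO and at 488 to 658 CPM with PBS, a log2 fold change of 0.58 ± 0.19 (SE). *Glul* was at 1497 to 1643 CPM with DMSO and at 940.3 to 1427 CPM with PBS, a log2 fold change of -0.42 ± 0.19 (SE). In both genes the cultures did not overlap. *Slc6a9* was at 80.4 to 106 CPM and 92.4 to 247 CPM, and its log2 fold change was 0.99 ± 0.33 (SE). *Slc6a11* had 0.46 ± 0.21 (SE), and *Abat* 0.83 ± 0.40 (SE), the latter without overlap. The 8 markers of the oligodendrocyte lineage summed to 510.8 to 675.5 CPM with DMSO and 683 to 852 CPM with PBS. These did not overlap, whereas the groups overlapped for every other marker list. Single astrocyte markers went both ways. The log2 fold change was -1.20 ± 0.31 for *Fgfr3* (SE), and also negative for *Sox9* and *Gfap*. It was 0.94 ± 0.25 for *Aldh1l1* and 0.96 ± 0.25 for *Gja1* (SE), and also positive for *S100b*, *Aqp4*, *Hepacam* and *Aldoc*. The part of these shifts in the values above was not tested.

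None of the 9 genes passed adjustment by edgeR (adjusted p = 1.00 for each, 0% of 13271 genes called). An unadjusted p under 0.05 was found for 4 of the 9 (*Slc6a11*, *Slc6a9*, *Glul* and *Glud1*), against 580 of all genes. DESeq2 called *Glud1* alone of the 9 (adjusted p = 0.0359), where it called 1.3% of all genes. PBS cultures were above all DMSO cultures for 2 of the 9 (3.04% of all genes) and below them for 1 (3.41% of all genes). Of 35 tested genes of the wider list none was called, and those with the smallest p were *Gcsh* (a subunit of the glycine cleavage system), *Slc7a5* (a transporter of large neutral amino acids) and *Got2* (mitochondrial aspartate aminotransferase). Their log2 fold changes were 1.20 ± 0.57, 0.95 ± 0.52 and 0.49 ± 0.27 (SE).

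Over all 5 groups, the mean level of *Slc6a11* followed the order SAG (557 ± 96.2 CPM, SD, n = 3), FGF10 (333 ± 80.2, n = 3), PBS (326 ± 42.8, n = 4), FGF2 (296 ± 67.5, n = 4) and DMSO (239 ± 43.6, n = 3). SAG and FGF10 cultures did not overlap, and all later neighbors in that order did. *Slc1a2* followed another order, from DMSO (501 ± 68.2 CPM) over SAG (463 ± 81.7), PBS (417 ± 101) and FGF2 (389.6 ± 125) to FGF10 (312 ± 66.1), in which every pair of neighbors overlapped. *Glul* was highest with DMSO (1569 ± 72.8 CPM), without overlap with the next group, FGF10 (1253 ± 279), and lowest with SAG (1143 ± 145). For *Slc6a9*, *Slc1a3*, *Glud1*, *Slc25a18*, *Slc38a3* and *Abat*, all neighbors in the order of the group means overlapped.

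Within the FGF experiment the replicate number separated several members in all 3 groups. The labels do not say what the numbers stand for, and the division into replicates 1 and 2 (6 cultures) and replicates 3 and 4 (5 cultures) was made with earlier results of these data known, so it is described without a test. *Slc6a9* was at 67.8 to 146 CPM in replicates 1 and 2 and at 153 to 247 CPM in replicates 3 and 4. *Slc25a18* was at 11.2 to 32.3 CPM and at 32.7 to 54.3 CPM, and *Glul* at 1328 to 1435 CPM and at 930.4 to 1120.3 CPM. These 3 did not overlap, while the other 6 did. Replicates 3 and 4 were entirely above replicates 1 and 2 for 2.49% of all genes and entirely below them for 2.32%. The mean of *Slc6a11* was 278 ± 39.1 CPM (SD) in replicates 1 and 2 and 364 ± 43.2 CPM in replicates 3 and 4, and that of *Slc1a2* was 439 ± 84.5 CPM and 305 ± 71.5 CPM.

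*Gad1* and *Gad2*, again examined after their values had been seen, moved with the same division. Which cells held these transcripts was not tested. *Gad2* was at 29.2 to 45.7 CPM in replicates 1 and 2 and at 0 to 3.97 CPM in replicates 3 and 4, and *Gad1* at 17.6 to 38.6 CPM and at 0 to 14.5 CPM. The sum of the 8 neuronal markers was 98.8 to 181 CPM in replicates 1 and 2 and 29.3 to 68.1 CPM in replicates 3 and 4. The other marker lists were lower in replicates 3 and 4 as well, without overlap: 2005 to 2513 CPM against 3362 to 3805 CPM for the 10 astrocyte markers, 346 to 782 CPM against 804 to 967 CPM for the oligodendrocyte lineage, 78.7 to 205 CPM against 308 to 464 CPM for ependymal cells, and 0 to 9.41 CPM against 14.4 to 64.9 CPM for endothelial and mural cells. Only the lists of microglia and macrophages and of fibroblasts overlapped. Their part in the levels of *Slc6a9*, *Slc25a18* and *Glul* was not tested. Within replicates 1 and 2 and within replicates 3 and 4, respectively, the log2 fold change of FGF2 against PBS was -0.31 ± 0.22 and 0.00322 ± 0.206 for *Slc6a11*, 0.0393 ± 0.178 and -0.29 ± 0.26 for *Slc1a2*, and -0.59 ± 0.26 and -0.52 ± 0.24 for *Glud1* (SE). For FGF10 against PBS, within replicates 1 and 2, it was -0.0856 ± 0.217 for *Slc6a11* and -0.51 ± 0.20 for *Slc1a2* (SE), and replicates 3 and 4 hold a single FGF10 culture.

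**Figure D5:**
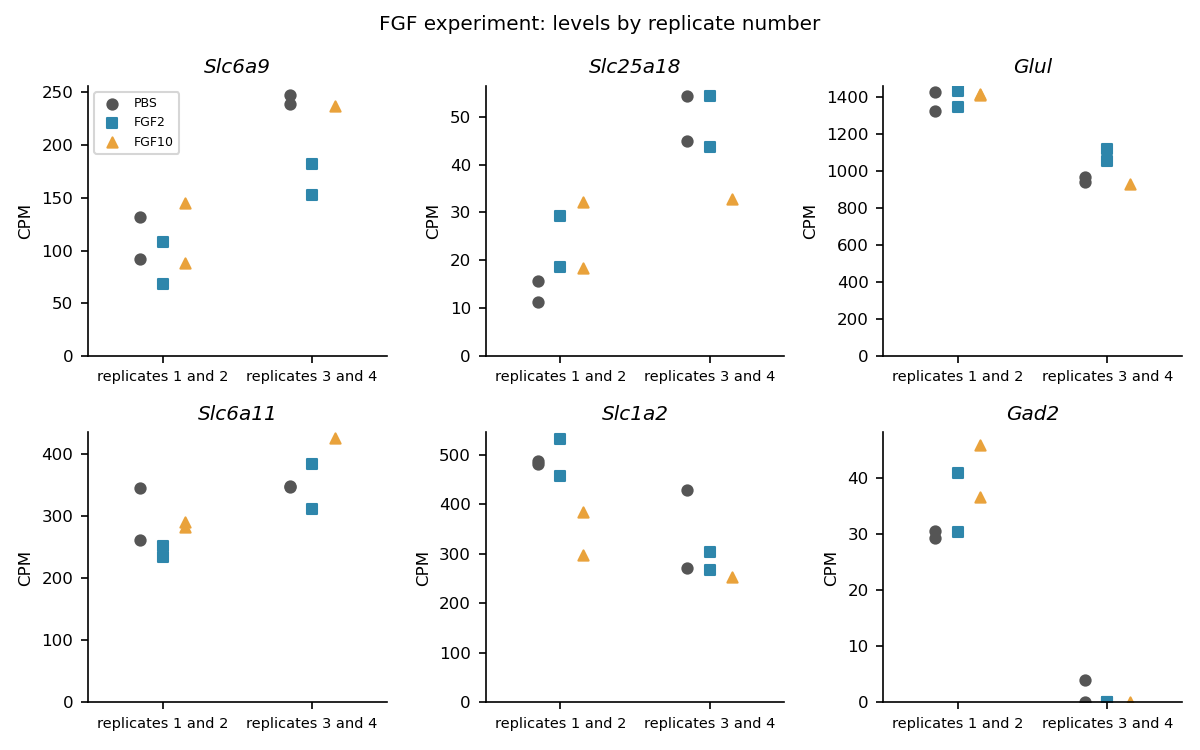
Level in CPM (vertical axes, from 0) of 5 of the 9 genes and of *Gad2* in the 11 cultures of the FGF experiment, by replicate number (horizontal axes), with a marker shape for each group. *Slc6a9* and *Slc25a18* are higher and *Glul* lower in replicates 3 and 4, *Slc6a11* and *Slc1a2* overlap, and *Gad2* is at most 3.97 CPM in replicates 3 and 4.

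The genes most like *Slc6a11* across the 17 libraries were sought among 9069 others with a mean of at least 10 CPM, by Pearson's r of log2(CPM + 1). They were *Grk3* (r = 0.86), *Pcx* (r = 0.84), *Kremen1* (r = 0.83), *Pop1* (r = 0.81) and *Prex1* (r = 0.81). With group means taken out, r was 0.69, 0.47, 0.76, 0.77 and 0.54 in that order. Within the 9, the nearest was *Slc25a18* (r = 0.65, rank 80) and the farthest *Glul* (r = -0.61, rank 8865), with -0.17 for *Slc1a2*. With group means taken out, the nearest of the 9 were *Slc6a9* (r = 0.63) and *Slc38a3* (r = 0.61), ahead of *Slc25a18* (r = 0.42), and *Slc1a2* was at -0.45. The genes most like *Slc1a2* were a gene listed only by an Ensembl identifier (r = 0.84), *Jcad* (r = 0.84), *Slc16a9* (r = 0.82), *Brsk1* (r = 0.79) and *Plagl1* (r = 0.78), and within the 9 *Slc1a3* (r = 0.66) and *Glul* (r = 0.62) were nearest and *Slc6a9* (r = -0.70) farthest. With group means taken out these 3 were at 0.50, 0.74 and -0.71. These values describe 17 libraries that share groups, replicate numbers and depth, and are given without a test.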

How the data were processed

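Per the labels and methods, RNA of immunopanned astrocyte cultures was made into 3ʹ-end libraries with QuantSeq, BC1 transcripts were removed, and the number of PCR cycles was determined before amplification. The authors aligned and counted reads with STAR, tested differences with DESeq2 and deposited whole-number counts per gene for 17 libraries. Annotation, strand setting and use of molecular identifiers are not given in the sources used here, so copies made by PCR may be counted. The methods give 3 FGF2 replicates and the labels 4, and all 4 were used. Columns named for Shh were taken as SAG of the same number. The methods call the replicates biological and the study describes them as sample pools, but the labels do not say whether they came from separate animals or cultures, so p-values measure only the spread between these samples. No row without a gene name was present, and 114 spike-in rows were left out.

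Counts were fitted with edgeR 4.0.16 in R 4.3.3 (filterByExpr set to at least 10 counts and a total of at least 15, TMM, quasi-likelihood test without covariates), with only the groups compared in each fit, after a test on simulated data. The simulated counts varied less than these libraries, whose common biological coefficient of variation was 107% to 117%. That test therefore checked the code and says nothing on power in these data. The SE was taken from the F statistic and intervals are 95% for single genes. DESeq2 1.42.0, other filters and scaling, a replicate block and leaving out each library were alternatives. The ratio used 0.5 added counts and two-sided exact permutation. All 9 genes were named in every comparison, and of the wider list those called or else the 3 with the smallest p. Pyruvate carboxylase was listed as *Pc* and matched by its synonym *Pcx* after the data had been seen. The genes and lists were chosen with earlier results of these data known. Values of 2 genes of the wider list are not reported here. Protein sequences were not used here.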

Additional observations from a re-analysis of the deposited data

Results flagged for a closer look

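In the PBS group, *Slc6a11* was at 262 CPM in replicate 2 and at 346 to 349 CPM in the other 3 cultures, so this culture stood apart by Dixon's criterion for 4 samples. Without it, the log2 fold change of FGF10 against PBS was -0.06 in place of 0.04. In the FGF2 group, *Slc38a3* was at 139 CPM in replicate 4 and at 39.4 to 51.9 CPM in the other 3, again apart from them. Of 20 sets of 4 cultures examined, 2 met the criterion, and chance alone gives about 1 in 20.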

How the results depend on the processing

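Of 45 log2 fold changes (9 genes in 5 comparisons), 27 kept their sign under every alternative and without any 1 library, and 18 changed it at least once. Under SAG, only *Slc1a2* and *Abat* changed sign. The cause of the changes below was not tested. The number of the 9 genes called under SAG, 0 with edgeR, was 1 with no filter, with genes averaging at least 10 counts and with the replicate number as a block, and 3 with DESeq2. For *Slc6a11* these gave log2 fold changes of 1.24, 1.24, 1.25 and 1.26, all called. With DESeq2, 1 of the 9 genes was called for PBS against DMSO, and 193 of all genes. DESeq2 called 398 genes under SAG where edgeR called 8, and edgeR called 76 with no filter, 42 with genes averaging at least 10 counts, 4 with all 17 libraries in one fit and 12 with the block.

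Same-numbered cultures did not deviate together in the SAG experiment (r = -0.01 to 0.00). In the FGF experiment not every same-numbered pair exceeded 0.1 (r = 0.05 to 0.16), so the numbers were not taken as pairs. Differently numbered cultures of the same set, replicates 1 and 2 or 3 and 4, also had a positive r (0.05 to 0.15). Cultures of different sets had a negative one (-0.16 to -0.05). Deviations were taken from group means, so negative values between sets follow in part from positive ones within sets. The division into sets was made with earlier results of these data known. This pattern appeared across PBS, FGF2 and FGF10, and the main fits held no term for the set. The replicate block gave -0.72 for *Abat* under SAG, -0.0272 for *Abat* under FGF2, 0.0212, 0.35 and 0.16 for *Slc6a9*, *Slc25a18* and *Slc38a3* under FGF10, and 0.0499 and -0.18 for *Glul* and *Slc38a3* between FGF2 and FGF10, each a change of sign. It left the log2 ratio of *Slc6a11* to *Slc1a2* under SAG at 1.35 and under FGF2 at -0.0437, and moved it from 0.42 to 0.65 under FGF10 and from -0.46 to -0.76 between the ligands.

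When the set of replicates was a term in the fit, sign changed for *Slc6a9* and *Slc25a18* under FGF10 (0.0349 and 0.36) and for *Glul* between the ligands (0.0804). Within replicates 1 and 2 it changed for *Slc1a2* and *Slc38a3* under FGF2 (0.0393 and -0.51) and for *Slc6a11*, *Slc6a9* and *Slc25a18* under FGF10 (-0.0856, 0.0629 and 0.92). Within replicates 3 and 4 it changed for *Slc6a11*, *Slc25a18* and *Abat* under FGF2 (0.00322, -0.0114 and -0.13).

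With 1 library left out, values crossed 0 as follows. Under SAG, *Slc1a2* ranged from -0.19 to 0.0527 and *Abat* from -0.59 to 0.65. Under FGF2, *Slc1a2* ranged from -0.27 to 0.0527, *Slc1a3* from -0.11 to 0.0588, *Slc25a18* from -0.0616 to 0.61, *Slc38a3* from -0.40 to 0.45 and *Abat* from -0.13 to 0.26. Under FGF10, *Slc6a11* ranged from -0.19 to 0.12, *Slc6a9* from -0.60 to 0.10, *Glul* from -0.00407 to 0.28, *Glud1* from -0.26 to 0.00455, *Slc25a18* from -0.48 to 0.21 and *Slc38a3* from -0.43 to 0.00974. Between the ligands, *Slc6a11* ranged from -0.32 to 0.0508, *Slc6a9* from -0.58 to 0.13, *Glul* from -0.18 to 0.0856 and *Slc38a3* from -0.18 to 0.62. The difference of the log2 ratio under FGF2 ranged from -0.34 to 0.22, with a change of sign without FGF2 replicate 1 or 2 or PBS replicate 4. Under SAG it ranged from 1.28 to 1.46, under FGF10 from 0.0891 to 0.68 and between the ligands from -0.76 to -0.13, in both cases nearest to 0 without FGF10 replicate 3. Copies made by PCR may be among the reads, and the part of library depth in these values was not tested.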
